A study of Mus musculus with 4 samples.

Results

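Insulin and insulin-like growth factors reach the growth-controlling kinase mTOR through a short chain of proteins, and 10 genes of that chain are described here in mouse embryonic stem cells under knockdown of eIF4A3. They are the receptors Insr and Igf1r, the receptor substrates Irs1 and Irs2, the TSC complex genes Tsc1 and Tsc2 with the small GTPase Rheb, and the kinase Mtor with its partners Rptor and Rictor. The genes were chosen by name and found in the files by Ensembl identifier, which GENCODE M21 pairs with symbols. All 10 were among the 37311 identifiers listed, and all 10 passed the filter on low counts.

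The cells were J1 embryonic stem cells (129S4/SvJae), kept on gelatin in serum and leukaemia inhibitory factor with no feeder layer. They carried short hairpins against eIF4A3, the RNA helicase at the core of the exon junction complex, and the labels name 2 such hairpins, sheIF4a3-2 and sheIF4a3-3. Puromycin selection lasted 3 days, collection was at day 4.5, and lysis followed 1 min in cycloheximide at 0.1 mg/mL, a drug that halts elongating ribosomes. From these cells came 2 libraries of ribosome protected fragments (RPF, the pieces of mRNA that ribosomes shield from nuclease) and 2 libraries of total RNA, called biological replicates in the labels. Both kinds of library come from knockdown cells, so the comparison is of RPF with total RNA within the knockdown, and no value below measures an effect of the knockdown. The hairpin used in each replicate is not given in the sources used here, and libraries without the knockdown were not analysed here.

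At the head of the pathway, ligand-bound insulin and IGF receptors phosphorylate the IRS proteins, which dock PI3-kinase at the membrane and so switch on AKT. AKT inhibits the TSC complex, a brake that keeps Rheb in its inactive form, and active Rheb stimulates the mTOR complex built around Raptor (the product of Rptor), which phosphorylates S6 kinases and the 4E-BP inhibitors of translation. A separate mTOR complex built around Rictor phosphorylates AKT. In mouse embryonic stem cells, mTOR activity is known to support growth and proliferation.

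The assay compares, for each gene, its share of the reads from ribosome footprints with its share of the reads from total RNA. Library totals were 9434987 and 7615277 gene counts in RPF and 8969965 and 8218020 in total RNA. Eif4a3 itself had 1640 and 1325 counts in RPF and 1229 and 975 in total RNA, with no level from cells without the knockdown to set beside them. The 8 stem cell markers examined, Pou5f1, Sox2 and Nanog among them, summed to 5572 to 5864 CPM (counts scaled to library size and TMM factors) in RPF and 3858 to 4165 CPM in total RNA. The 8 fibroblast markers summed to 15.3 to 19.0 CPM in RPF and 10.7 to 10.8 CPM in total RNA, and Dcn was at 0 in every library. The differentiated lineage markers found in the files summed to 87.3 to 90.8 CPM in RPF and 48.4 to 50.9 CPM in total RNA, of which Krt8 made up 46.6 to 51.1 CPM in RPF and 19.0 to 21.7 CPM in total RNA. RPF libraries differed from each other by at least 2-fold at 9.51% of tested genes, total RNA libraries at 3.64%.

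The ratio below is log2 of RPF over total RNA, given with its standard error (SE), from edgeR's quasi-likelihood fit over 13809 genes. A gene was called where its adjusted p (Benjamini-Hochberg over all tested genes) was under 0.05. These p-values rest on the spread between 2 libraries per fraction. Ratios are relative to the bulk of genes, whose median was -0.024, and scaling by library size alone moved that median by -0.43. A low or high ratio says that footprints were fewer or more for the amount of RNA than in the bulk of genes. In bulk libraries like these, fewer cells of a type and less RNA per cell cannot be told apart.

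Of the 10 genes, 1 was called higher in RPF, where 20.5% of all tested genes were called higher, and 3 were called lower, where 21.2% of all tested genes were called lower. Together these are 4 genes called, where 41.7% of all tested genes were called in either direction. The gene called higher was Irs2, and those called lower were Tsc1, Rictor and Irs1, the last of which passed the filter only through its total RNA counts and so had to differ. The median ratio of the 10 was -0.31. Of these genes, 9 code for long proteins, and 10.2% of the 1910 tested genes with at least 3000 coding bases were called higher and 22.7% lower, with a median of -0.16. Read against these shares, the count of calls among the 10 is near the background. The results lie in the individual genes and in how paired genes compare within libraries.

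**Figure D1:**
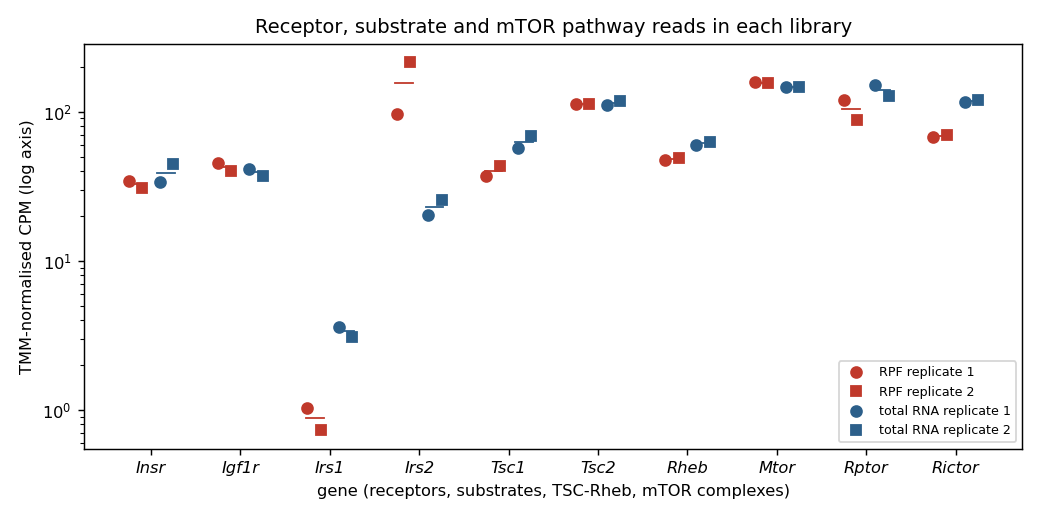
Level of each of the 10 genes in every library, in TMM-normalised CPM on a log axis, with a point per library and a short line at the mean of each fraction. Irs2 lies between 96.4 and 214 CPM in RPF and between 20.2 and 25.5 CPM in total RNA, and Irs1 is the lowest gene in all 4 libraries.

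The start codon and its surroundings are where a scanning ribosome commits to the reading frame, and they are shown for the 4 called genes and for Rptor, whose context differs from the others. Each line runs 5′ to 3′ on the mRNA strand, from 9 bases before the start codon to base 6 of the reading frame, with the start codon in capitals. The sequences are from the GENCODE M21 (GRCm38) transcript with the most coding bases, and lie on chromosome 8 for Irs2, 1 for Irs1, 15 for Rictor, 2 for Tsc1 and 11 for Rptor.
Irs2: gcggcggcgATGgct
Irs1: cgcagcagcATGgcg
Rictor: cccgtcaatATGgcg
Tsc1: agtgagagaATGgcc
Rptor: cctcccctgATGgag
The purine known to favour initiation in mammals, A or G 3 bases before the start codon, was present in 9 of the 10 genes and in 83.8% of 12633 tested coding genes. Rptor was the exception among the 10, with C there. G directly after the start codon was present in 7 of the 10 and in 53.1% of the coding genes, and both features in 6 of the 10 and in 44.4%. Irs2 and Irs1 carry both features, and so do the other called genes, Rictor and Tsc1. Tsc2 and Insr, which were not called, carry both as well.

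The receptors were not called in either direction. Insr, the insulin receptor, had 34.3 and 30.7 CPM in RPF and 33.5 and 44.4 CPM in total RNA. Its libraries overlapped between the fractions, and the ratio of -0.26 ± 0.19 had an adjusted p of 0.308. Igf1r, the receptor for insulin-like growth factors, had 45.3 and 40.0 CPM in RPF and 41.5 and 37.0 CPM in total RNA, again with overlap. Its ratio was 0.12 ± 0.16 (adjusted p = 0.572). Within each library, Igf1r had 1.32 and 1.30 counts per Insr count in RPF, against 1.24 and 0.833 in total RNA. This quotient does not depend on scaling, and its RPF values lie just above the higher total RNA value, with exact binomial 95% intervals that overlap (1.12 to 1.55 in RPF replicate 1, against 1.07 to 1.43 in total RNA replicate 1). Both receptors have long 3′ untranslated regions in the annotation, 7267 bases in Igf1r and 4747 in Insr, against a median of 961 over tested coding genes. Total RNA reads can fall there while footprints lie mainly in coding sequence. Corrected jointly for exon length and the share of exons that is coding, Igf1r was called higher at 0.57 (adjusted p = 0.026), while Insr stood at 0.035. Of the 15 alternatives, this was the only 1 in which Igf1r passed. Corrected for coding share alone, Igf1r stood at 0.28 over merged exons and 0.28 over a single transcript. Neither passed (adjusted p = 0.187 and 0.205).

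The insulin receptor substrates stood at opposite ends of the 10 genes. Irs2, which carries insulin and IGF signals to PI3-kinase, had 747 and 1471 counts in RPF and 207 and 248 counts in total RNA. As levels, these were 96.4 and 214 CPM in RPF, against 20.2 and 25.5 CPM in total RNA. Both RPF libraries were several-fold above both total RNA libraries, with no overlap. The ratio was 2.76 ± 0.37, a 6.78-fold higher share in RPF, and passed with an adjusted p of 0.00188. It lay at percentile 98.5 of all tested genes, and 77 of 12633 tested coding genes had a higher one. Among the 1910 genes with long coding sequences, 6 were higher.

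The 2 RPF libraries did not give Irs2 the same level. RPF replicate 2 held 2.22 times the level of replicate 1, while total RNA replicate 1 held 0.792 times that of replicate 2. A gap at least this wide between RPF libraries occurred in 8.36% of all tested genes, but in 1.23% of the 2204 genes at a similar RPF level. Without RPF replicate 1 the ratio was 3.23, and without RPF replicate 2 it was 2.08. Taken over the 4 possible pairings of an RPF with a total RNA library, the ratio ran from 1.92 to 3.40. The size of the Irs2 difference therefore rests on which RPF library is used, while its direction was the same in every pairing.

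Irs1, the other widely expressed substrate and the first to be described, was sparse. It had 8 and 5 counts in RPF and 37 and 30 counts in total RNA. Exact Poisson 95% intervals, which cover counting error only, ran from 3.45 to 15.8 and from 1.62 to 11.7 counts in RPF, and from 26.1 to 51.0 and from 20.2 to 42.8 counts in total RNA. As raw counts, not scaled to library size or TMM factors, the intervals of the fractions did not overlap. The filter that admitted Irs1 bears on that gap. In CPM, Irs1 had 1.03 and 0.727 in RPF, against 3.61 and 3.09 in total RNA, and the ratio of -1.90 ± 0.45 was called lower (3.74-fold, adjusted p = 0.0147). Irs1 passed the filter only through its total RNA counts, so a gene this low in RPF could enter the test only if it was higher in total RNA. The call was lost without total RNA replicate 1 (-1.79, adjusted p = 0.0996), without total RNA replicate 2 (-2.01, adjusted p = 0.0617) and in DESeq2 (-1.90, adjusted p = 0.0543).

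Set against each other within a library, the pair needs no scaling. Irs2 had 93.4 and 294.2 counts per Irs1 count in RPF, against 5.59 and 8.27 in total RNA. The RPF quotients divide by 8 and 5 counts and are loose, with exact binomial 95% intervals for counting error from 47.1 to 217 and from 126 to 907, against 3.93 to 8.17 and 5.65 to 12.5 in total RNA. The filter that admitted Irs1 bears on this contrast too. The 2 genes are alike in exon number and in the length of the reading frame. Each has 1 exon junction, a reading frame of 3963 bases in Irs2 and 3693 in Irs1, and a long 3′ untranslated region, 2329 bases in Irs2 and 4525 in Irs1. They differ in the coding share of the transcript, 62.7% in Irs2 and 40.4% in Irs1. The annotated 5′ untranslated region differs too. It is 28 bases with no upstream ATG in Irs2 and 923 bases with 5 upstream ATGs in Irs1. The Irs2 model in GENCODE M21 starts downstream of the RefSeq start, so its 5′ length and its count of upstream ATGs here are lower limits. The 540 tested coding genes with exactly 2 exons had a median ratio of -0.18, with 15.9% called higher and 25.4% lower. The part of exon number in the ratios of Irs2 and Irs1 was not tested. Irs1 shares 30.8% of its 28-base stretches with other annotated transcripts, mainly the opposite-strand gene Gm9747, which had 0 counts in all 4 libraries; whether the counting used strand is not given in the sources used here. For Irs2 that share was 2.27%.

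**Figure D2:**
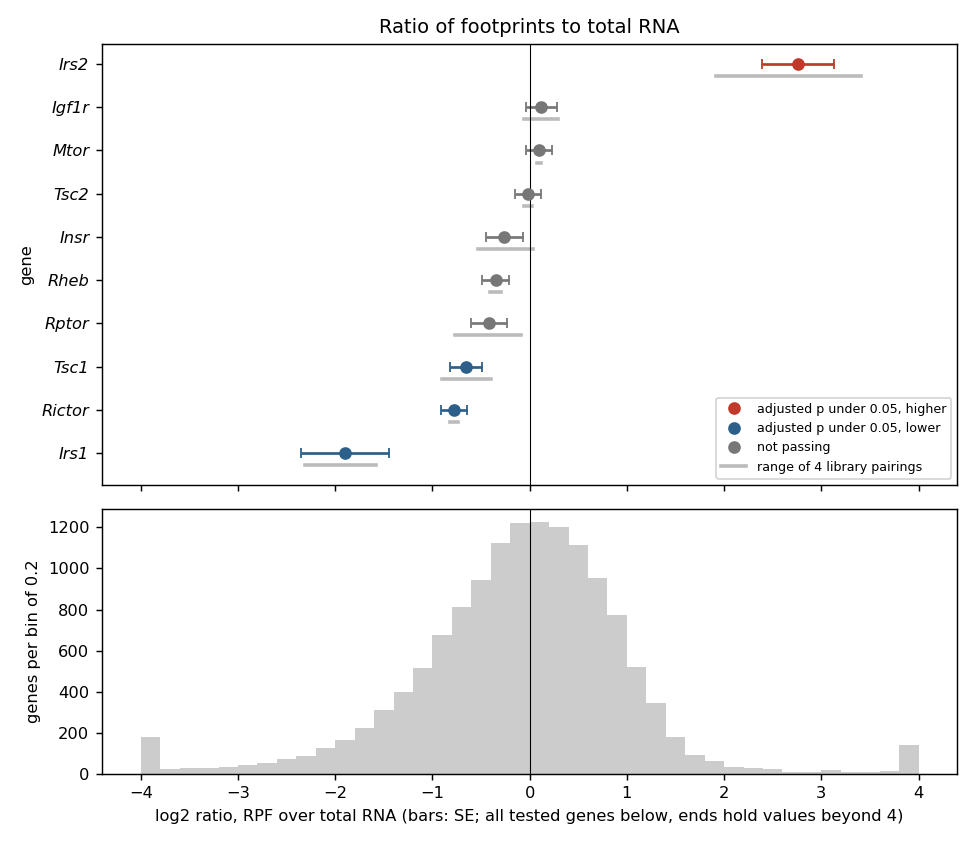
Log2 of RPF over total RNA for each of the 10 genes, with SE as bars and the range over the 4 pairings of libraries as grey lines, above a histogram of the ratios of all tested genes. Irs2 at 2.76 and Irs1 at -1.90 lie farthest from 0, and Rictor at -0.78 has the tightest pairings among the genes called lower.

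The TSC genes differed in whether they were called. Tsc1, whose product hamartin stabilises the complex, had 36.9 and 43.4 CPM in RPF and 57.2 and 68.8 CPM in total RNA. Both RPF libraries were below both total RNA libraries. Its ratio was -0.65 ± 0.17, called lower with an adjusted p of 0.0184, and ran from -0.90 to -0.40 over the pairings. The call was lost without total RNA replicate 2 (-0.51, adjusted p = 0.153) and when the ratio was corrected jointly for exon length and coding share (-0.39, adjusted p = 0.103). Tsc2, which encodes the GTPase-activating subunit tuberin that acts on Rheb, had 112.6 and 112.5 CPM in RPF and 110.8 and 117.0 CPM in total RNA. These values overlap, and the ratio was -0.017 ± 0.13 (adjusted p = 0.928). With total RNA replicate 2 left out it was 0.023, and under DESeq2 size factors 0.0091, so no direction can be given.

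Within each library, Tsc2 had 3.05 and 2.59 counts per Tsc1 count in RPF, against 1.94 and 1.70 in total RNA, without overlap. The transcripts differ in build. Tsc1 has a 3′ untranslated region of 3994 bases and a coding share of 45.2%, Tsc2 one of 84 bases and a coding share of 96.9%. The trend across coding genes gives a ratio of -0.031 at the coding share of Tsc2 and -0.040 at that of Tsc1. With the coding share taken over merged exons, 57.3% in Tsc2 and 30.2% in Tsc1, the trend gives 0.19 for Tsc2 and -0.087 for Tsc1, which differ in the same direction as the quotient. The part of coding share in that difference was not tested. Tsc2 shares 7.20% of its exon bases with Pkd1 on the opposite strand, and Pkd1 had 13.0 and 16.1 CPM in RPF and 55.9 and 70.1 CPM in total RNA.

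Rheb, the GTPase that the TSC complex inactivates and that stimulates mTOR, had 47.2 and 48.7 CPM in RPF and 59.7 and 62.7 CPM in total RNA. Both RPF libraries lay below both total RNA libraries, close to each other. The ratio of -0.35 ± 0.13 did not pass (adjusted p = 0.0736). It is the only short gene of the 10, with 552 coding bases in a transcript of 1784, and coding bases are 7.15% of its merged exons. Correction for that share turned the ratio to 0.14, and with exon length to 0.30, while correction by the coding share of a single transcript gave -0.065; none of these passed. It was called lower with a filter at a mean of 10 CPM (-0.44, adjusted p = 0.033) and under scaling by library size alone (-0.78).

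**Figure D3:**
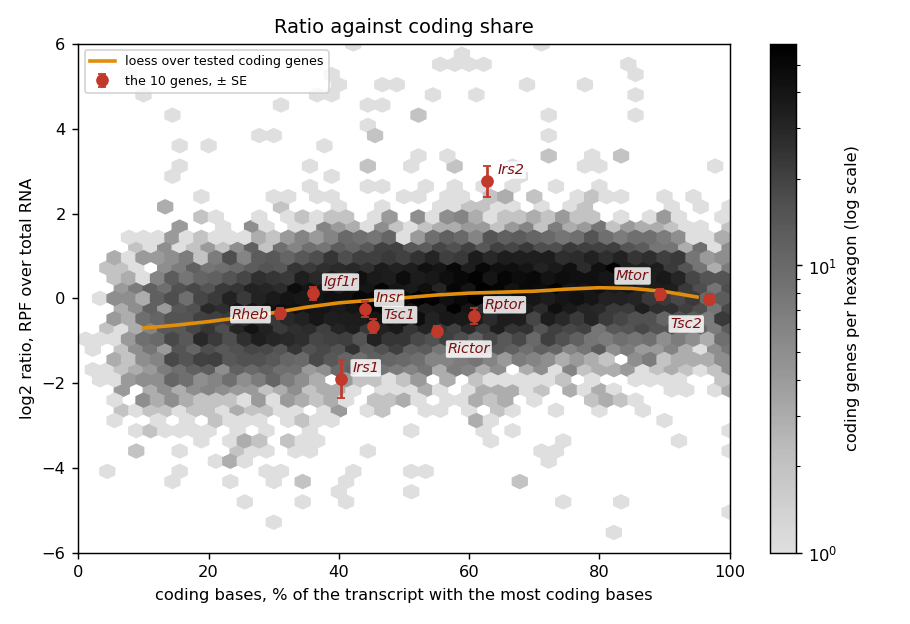
Log2 ratio against the percentage of the transcript that is coding, for tested coding genes as hexagons shaded by their number, with a loess curve and the 10 genes ± SE; 28 coding genes lie outside the axis limits of 6. The curve passes through 0.14 at the coding share of Irs2 and -0.099 at that of Irs1, against their own ratios of 2.76 and -1.90.

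Among the mTOR complex genes, Mtor and Rptor were not called and Rictor was called lower. Mtor, the kinase shared by both complexes, had 157.5 and 154.8 CPM in RPF and 145.5 and 147.3 CPM in total RNA. The RPF libraries were above the total RNA libraries by a small margin. The ratio was 0.093 ± 0.13 (adjusted p = 0.600), and it was below 0 under scaling by library size alone (-0.34) and after the coding share corrections (-0.15 over merged exons, -0.11 over a single transcript). Rptor, whose product Raptor recruits the substrates of mTORC1, had 119.7 and 88.4 CPM in RPF and 150.5 and 127.3 CPM in total RNA. Its RPF libraries were below its total RNA libraries but 1.35-fold apart from each other. The ratio of -0.42 ± 0.19 did not pass (adjusted p = 0.112). It passed as lower without RPF replicate 1 (-0.65, adjusted p = 0.0125), after the single-transcript correction (-0.57, adjusted p = 0.0442) and under scaling by library size alone (-0.85, adjusted p = 0.00612).

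Rictor, the defining subunit of mTORC2, had 525 and 477 counts in RPF and 1188 and 1157 counts in total RNA. In CPM these were 67.7 and 69.4 in RPF, against 116 and 119 in total RNA. Replicates lay within a few percent of each other, and the fractions were well apart. The ratio was -0.78 ± 0.13, a 1.72-fold lower share in RPF, with an adjusted p of 0.0039. It ran from -0.81 to -0.74 over the pairings and was called under all 15 alternatives, with values from -1.21 to -0.43. The Rictor transcript has a 5′ untranslated region of 20 bases and a 3′ one of 4165. Rptor and Rictor were not separated within libraries, where Rptor had 1.77 and 1.27 counts per Rictor count in RPF, against 1.30 and 1.07 in total RNA, with overlap.

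Counting genes whose fractions did not overlap, Mtor and Irs2 had both RPF libraries above (34.9% of all tested genes did), Irs1, Tsc1, Rheb, Rptor and Rictor had both below (37.9% did), and Insr, Igf1r and Tsc2 overlapped.

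Levels between genes were compared per length of each gene's model. In RPF, per kilobase of coding sequence, the order of mean levels was Rheb 86.9 CPM, Irs2 39.2, Rptor 26.0, Tsc2 20.7, Mtor 20.4, Rictor 13.4, Tsc1 11.5, Igf1r 10.4, Insr 7.90 and Irs1 0.238. Libraries of neighbours in this order overlapped for Irs2 and Rptor and for Tsc1 and Igf1r. In total RNA, per kilobase of transcript, the order was Rheb 34.3 CPM, Rptor 21.1, Tsc2 20.3, Mtor 17.1, Rictor 12.6, Tsc1 8.18, Insr 4.16, Irs2 3.62, Igf1r 3.44 and Irs1 0.367. Here the libraries overlapped for Rptor and Tsc2, for Insr and Irs2, and for Irs2 and Igf1r. Rheb led and Irs1 was last in both orders. The lengths are those of the transcript with the most coding bases. For Rheb this has 1784 bases, against 7721 bases in its merged exons, so its lead in total RNA depends on the model used. Irs2 was 2nd in RPF and 8th in total RNA.

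The rest of the pathway was read from 6 lists holding 102 genes, of which 96 could be tested. In these, 10 genes (10.4%) were called higher and 26 (27.1%) lower, with a median ratio of -0.14, where 20.5% of all tested genes were called higher and 21.2% lower. The share called in each list below is to be read against those shares. Depdc5, Nprl3, Prr5, Mlst8 and the genes named below as called without a value were picked for mention after their values were seen.

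**Figure D4:**
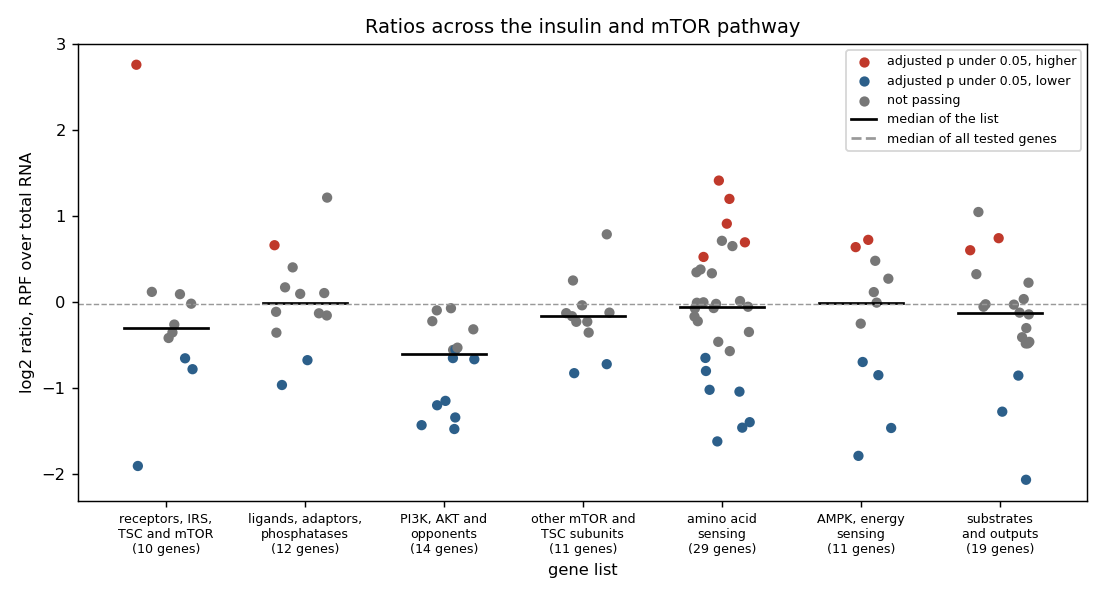
Log2 of RPF over total RNA for the 10 genes and for the tested genes of the 6 pathway lists, coloured by call, with each list's median as a bar and the median of all tested genes as a dashed line. The list of PI3-kinases, AKT kinases and their opponents has the lowest median, -0.60, and no gene called higher.

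The list of PI3-kinases, AKT kinases and their opponents lies directly downstream of the IRS proteins. Of its 14 tested genes, 8 (57.1%) were called lower and none higher, and the median ratio was -0.60, against -0.024 over all tested genes. Pik3ca, the catalytic subunit p110α, had 24.6 and 21.5 CPM in RPF, against 56.9 and 71.6 CPM in total RNA, and a ratio of -1.47 ± 0.18 (adjusted p = 0.00145). Akt1 had 24.0 and 32.4 CPM in RPF, against 40.5 and 42.2 CPM in total RNA, and did not pass at -0.55 ± 0.19 (adjusted p = 0.0523), but passed under 8 of the 15 alternatives. Pik3r1, the regulatory subunit p85α that docks on IRS proteins, stood at -0.095 ± 0.19 (adjusted p = 0.724). The count of genes called lower was 10 after either correction for coding share, 7 after the joint correction with exon length, and 5 without total RNA replicate 2. The median coding share in this list was 42.6%, and 54.8% over tested coding genes by the single-transcript measure.

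Of the ligands, adaptors and phosphatases at the receptors, 12 of 17 could be tested. Of these, 1 (8.33%) was called higher and 2 (16.7%) lower, and the median ratio was -0.0071. Ins1, Ins2, Igf1, Insrr and Irs3 were below the count filter. Igf2r, which clears IGF2 from the cell surface, was called higher with 268 and 239 CPM in RPF, against 164 and 156 CPM in total RNA (ratio 0.66 ± 0.14, adjusted p = 0.0104). That call was lost after the single-transcript correction (0.39) and under scaling by library size alone (0.23, adjusted p = 0.205). It was also lost without either total RNA library, at 0.70 without replicate 1 and 0.63 without replicate 2. Ptpn11, the phosphatase SHP2 that relays receptor signals, was called lower with 86.3 and 111 CPM in RPF, against 182 and 202 CPM in total RNA (ratio -0.96 ± 0.17, adjusted p = 0.00479). Sos1, a Ras exchange factor, was the other gene called lower.

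Of 11 other subunits and assembly factors of the mTOR and TSC complexes, 2 (18.2%) were called lower and none higher, with a median of -0.16. Mapkap1, which encodes the mTORC2 subunit SIN1, had 30.1 and 32.9 CPM in RPF, against 54.8 and 56.6 CPM in total RNA. Its ratio was -0.82 ± 0.15 (adjusted p = 0.00503), and after the joint correction -0.86. Of the other mTORC2 subunits in the list, Prr5 (-0.23) and Mlst8 (-0.036) were not called. Deptor, an inhibitor bound by mTOR, had 23.1 and 32.4 CPM in RPF, against 45.8 and 45.5 CPM in total RNA (ratio -0.72 ± 0.20, adjusted p = 0.0241). Deptor lost its call without RPF replicate 1 (-0.49), without either total RNA library and after each coding share correction (-0.43, -0.26 and -0.11). Tbc1d7, the other subunit of the TSC complex, stood at 0.79 ± 0.29 and did not pass (adjusted p = 0.0615), but passed without RPF replicate 2 at 1.09 (adjusted p = 0.00347) and after the merged-exon and joint corrections (0.92 and 0.96). Without RPF replicate 1 it was 0.41 (adjusted p = 0.322).

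Of the 29 genes of amino acid sensing at the lysosome, 5 (17.2%) were called higher and 7 (24.1%) lower, both near the shares over all tested genes, with a median of -0.053. Rraga and Rragc encode Rag GTPases that pair with each other to bring mTORC1 to the lysosome. Rraga had 169 and 137 CPM in RPF, against 69.6 and 63.3 CPM in total RNA, and was called higher at 1.201 ± 0.16 (adjusted p = 0.00185). Rragc had 20.9 and 31.0 CPM in RPF, against 69.5 and 72.8 CPM in total RNA, and was called lower at -1.46 ± 0.20 (adjusted p = 0.00219). The partners were thus called in opposite directions. Nprl2, a subunit of GATOR1, the complex that inactivates RagA and RagB, had 42.6 and 46.7 CPM in RPF, against 14.8 and 18.7 CPM in total RNA (ratio 1.41 ± 0.19, adjusted p = 0.00188). The other genes called higher were Sec13, Lamtor2 and Itfg2, and the other genes called lower included Castor2, Fnip2, Rragd, Lamtor1 and Depdc5. Depdc5 encodes another subunit of GATOR1 and stood at -0.65, on the other side from Nprl2. Nprl3, also of GATOR1, stood at 0.014 and was not called. Rraga, Rragc and Nprl2 were called under all 15 alternatives, but the joint correction with exon length brought Rraga to 0.62 and Nprl2 to 0.92.

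The list of AMPK, the energy sensor that restrains mTORC1, and its regulators held 11 tested genes. Of these, 2 (18.2%) were called higher and 4 (36.4%) lower, with a median of -0.0047. Prkaa1, the catalytic subunit α1, had 73.8 and 72.0 CPM in RPF, against 44.4 and 43.8 CPM in total RNA (ratio 0.72 ± 0.13, adjusted p = 0.00534). Prkab2, a regulatory β subunit, had 7.10 and 9.46 CPM in RPF, against 21.6 and 35.4 CPM in total RNA (ratio -1.79 ± 0.31, adjusted p = 0.00445). The call of Prkaa1 was lost under scaling by library size alone (0.29, adjusted p = 0.147). Strada was also called higher, and Prkaa2, the other catalytic subunit, was called lower with Stk11 and Cab39. Stk11 is the kinase LKB1 that activates AMPK, and Strada and Cab39 encode its partners.

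Among substrates and outputs of mTORC1, mTORC2 and AKT, 19 of 20 genes could be tested, Eif4ebp3 being below the filter. Of these, 2 (10.5%) were called higher (Sgk1 and Pdcd4) and 3 (15.8%) lower (Eif4ebp2, Foxo3 and Gsk3b), with a median of -0.12. Eif4ebp2, a repressor of cap-dependent translation, had 32.6 and 29.4 CPM in RPF, against 121 and 139 CPM in total RNA. Its ratio of -2.06 ± 0.15 was called lower with an adjusted p of 0.000419. After the 3 coding share corrections it was still called, at -1.55, -1.45 and -1.35. The related Eif4ebp1 had 117.3 and 114.1 CPM in RPF, against 119.1 and 116.8 CPM in total RNA, and a ratio of -0.028 ± 0.13 (adjusted p = 0.879). Within each library, Eif4ebp1 had 3.59 and 3.88 counts per Eif4ebp2 count in RPF, against 0.988 and 0.840 in total RNA, without overlap. After the single-transcript correction Eif4ebp1 itself was called higher at 0.53 (adjusted p = 0.0165). Rps6kb1, which encodes S6 kinase 1, did not pass at -0.30 ± 0.14 (adjusted p = 0.125), nor did Tfeb, a transcription factor held in the cytoplasm by mTORC1, at 1.05 ± 0.43 (adjusted p = 0.088). Tfeb had 24.9 and 10.9 CPM in RPF, against 10.7 and 6.59 CPM in total RNA, and its ratio depended on the library left out. It was 0.33 without RPF replicate 1 and 0.74 without total RNA replicate 2, neither passing, and 1.52 without RPF replicate 2 and 1.44 without total RNA replicate 1, both passing.

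Likeness of pattern was measured as the distance between centred log2 CPM values over the 4 libraries, taken to the 96 tested pathway genes. Nearest to Irs2 were Nprl2 at a distance of 1.43, Rraga at 1.82 and Grb14 at 1.84. The last had a ratio of 1.22 ± 0.45 that did not pass (adjusted p = 0.0666), and 1.42 without RPF replicate 2. Grb14 was sparse, with 23 and 15 counts in RPF and 10 and 12 counts in total RNA. Its total RNA counts alone would not have met the filter, which bears on its high ratio. Nearest to Irs1 were Eif4ebp2 at 0.411, Castor2 at 0.543 and Pik3ca at 0.658. Castor2 had 3.35 and 3.49 CPM in RPF, against 10.5 and 10.6 CPM in total RNA, and was called lower at -1.62 ± 0.28 (adjusted p = 0.00476), or -0.99 after the single-transcript correction. No tested pathway gene came as close to Irs2 as these 3 came to Irs1, and Irs2 had the highest ratio of the 10 genes and the 96 pathway genes together. Irs2 and Irs1 were picked for their extreme ratios among the 10. Distances and ratios use the same 4 libraries, so neighbours with ratios in the same direction follow from that choice. An extreme gene such as Irs2 has few genes near it for the same reason. The Irs1 pattern rests on 8 and 5 counts in RPF and on the filter that admitted it.

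**Figure D5:**
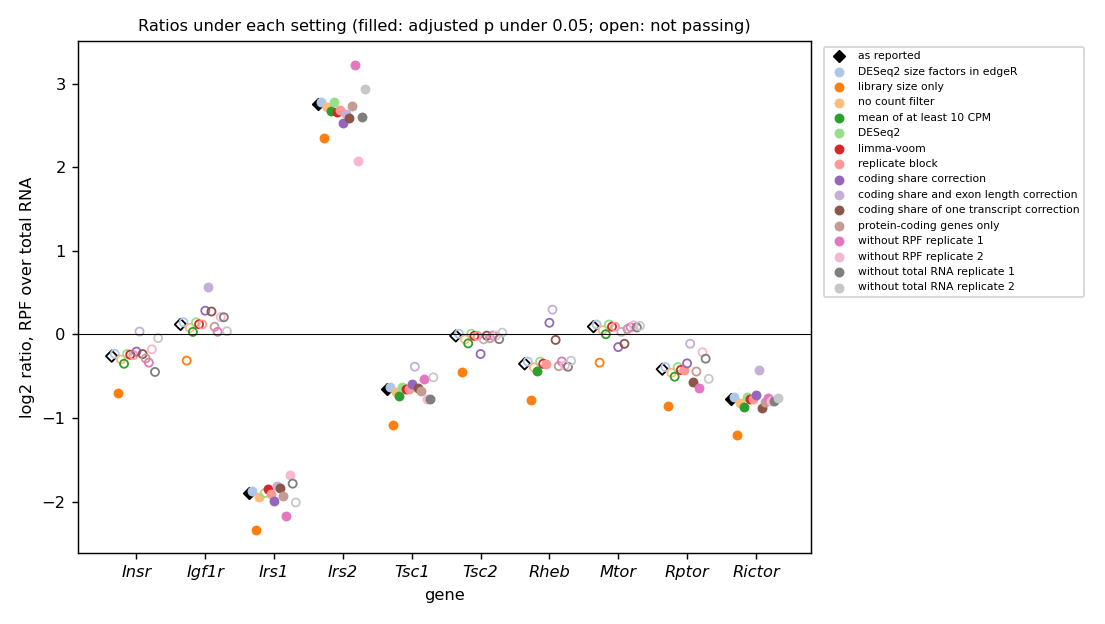
Ratio of each of the 10 genes under the main settings and the 15 alternatives, with filled points where the adjusted p was under 0.05. Irs2 stays between 2.08 and 3.23 and Rictor between -1.21 and -0.43, both called throughout, while Mtor, Tsc2, Rheb, Igf1r and Insr have points on both sides of 0.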

How the data were processed

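Ribosome footprints and total RNA were sequenced from eIF4A3 knockdown J1 cells, 2 libraries each. The authors' deposited values are raw read counts per gene. Per the submitters' processing notes they used edgeR 3.26.8, HTSeq 0.11.2, Bowtie 1.2.3 and TopHat2 2.1.1 on build mm9. Not given in the sources used here are the role of each tool, the annotation release, the counted feature, strand handling and how the 4 runs of an RPF library were merged. Closing tallies that name no gene, 32.0% and 35.9% of RPF and 40.7% and 43.4% of total RNA reads in the files, were kept out. A count of 0 allows up to 3 counts, 0.387 and 0.436 TMM-scaled CPM in RPF and 0.293 and 0.309 in total RNA.

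Fractions were compared in edgeR 4.0.16 (R 4.3.3, limma 3.58.1) by a two-sided quasi-likelihood test on counts passing filterByExpr (minimum 10, total 15), with TMM factors of 0.822 and 0.903 in RPF and 1.14 and 1.18 in total RNA. The SE is the size of the log2 ratio over the square root of F. Symbols, lengths and transcript sequences came from GENCODE M21 (GRCm38), which named 32621 identifiers (87.4%), and since the builds differ no coordinates are printed. Coding share trends used loess with span 0.5. In simulated counts for 13809 genes, 100 genes were changed 2-fold and 100 were changed 4-fold, and every gene had the same dispersion. On these the test recovered 33% of 2-fold and 91% of 4-fold changes, with 2 calls among unchanged genes. The data hold far more called genes and RPF libraries that vary more than total RNA libraries, so these rates do not carry over.

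Named genes were the 10 genes; Akt1, Pik3ca, Rps6kb1, Eif4ebp1, Eif4ebp2 and Deptor; the highest and lowest ratio of each list at a mean of at least 10 CPM; and the 3 pathway genes nearest in pattern to Irs2 and to Irs1. The rule also took 1 gene that is not reported here. The genes and lists were chosen with earlier results of these data known. Alternatives were limma-voom, DESeq2 1.42.0, its size factors within edgeR, scaling by library size alone, a filter at a mean of 10 CPM, no filter, the replicate number as a block, coding share over merged exons, that share with exon length, protein-coding genes only, and each library left out. A correction by the coding share of a single transcript was added after seeing the data.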

Additional observations from a re-analysis of the deposited data

How the results depend on the processing

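Irs2 and Rictor were called under all 15 alternatives, and Irs2, Rictor, Tsc1, Irs1 and Rptor kept their sign under those that gave a value; Irs1 fell below the filter of 10 CPM. Scaling by library size alone gave 1226 genes higher and 4957 lower, 7 of the 10 genes lower, 2 pathway genes higher and 48 lower, and ratios of -0.34 for Mtor, -0.85 for Rptor, -0.45 for Tsc2, -0.78 for Rheb, -0.31 for Igf1r and -0.70 for Insr. Coding share correction gave -0.15 for Mtor, 0.14 for Rheb, 0.095 for Pik3r1 and 0.27 for Eif4ebp1. With exon length it gave 2 of the 10 genes higher, -0.39 for Tsc1, 0.30 for Rheb, 0.57 for Igf1r, 0.035 for Insr, 0.28 for Pik3r1, 0.061 for Rps6kb1 and 0.023 for Eif4ebp1. The single-transcript correction gave -0.11 for Mtor, -0.57 for Rptor, 0.20 for Pik3r1, 0.045 for Rps6kb1 and 0.53 for Eif4ebp1. DESeq2 gave -1.90 for Irs1 and, like its size factors in edgeR, 0.0091 for Tsc2; a mean of at least 10 CPM gave -0.44 for Rheb. The causes were not tested.

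With one library left out, counts ran from 1634 to 3123 genes higher, 1861 to 3310 lower, 1 to 4 of the 10 genes lower and 4 to 15 pathway genes higher, lowest each time without total RNA replicate 2. Ratios ran from -0.65 to -0.21 for Rptor, -0.78 to -0.51 for Tsc1, -0.056 to 0.023 for Tsc2 and -2.18 to -1.69 for Irs1. The labels do not tie replicate numbers to a shared lysate; same-numbered libraries deviated together with a correlation of 0.386 over 13547 genes. With the replicate block, 4257 genes were higher, 5 of the 10 lower and 20 pathway genes higher. Rptor (-0.42, adjusted p = 2.1e-05) and Rheb (-0.35, adjusted p = 0.0029) passed, as did Akt1, Rps6kb1, Tbc1d7, Tfeb and Grb14. No call among the named genes was lost. The block leaves 1 residual degree of freedom per gene, so its p-values rest mostly on variance shared across genes. They do not measure a gene's own spread: Irs2 had an SE of 0.11 with the block, though its RPF libraries were 2.22-fold apart. A lone library in a fraction was assumed to vary like the other fraction. Depth limits Irs1 most, and 2 libraries per fraction limit all ratios.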
